A study of Mus musculus with 8 samples.

Results

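The mouse mitochondrial genome carries 37 genes, and all 37 were found among the 38918 gene entries of the table by taking those placed on chromosome MT. They are 13 protein-coding genes, 2 ribosomal RNA (rRNA) genes and 22 transfer RNA (tRNA) genes, and each lay at its GENCODE M21 position (GRCm38, the assembly that mm10 names). Poly(A)-selected RNA was sequenced from BMiFLT3 (15-3), a pro-B cell line from a mouse B-cell precursor acute lymphoblastic leukaemia. The cells had been infected with a retrovirus for blue fluorescent protein (the BFP group, the control) or with a retrovirus for the transcription factor Klf2 (the Klf2 group), and the question of the design was which genes Klf2 regulates. The column names of both groups contain BFP, so both constructs may carry it. Each group is 1 library read on 4 sequencing lanes, so n = 1 per group, no test of the 2 constructs was possible and no difference has a replicate check. The cells are 1 line, the time after infection is not given in the sources used here, and the labels name 2 library kits and do not assign them to libraries, so kit and construct cannot be told apart. In bulk RNA, fewer cells of a type and less RNA per cell cannot be told apart either.

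The mitochondrial genome is a small circle, transcribed on both strands into long precursors that run through most of its genes. The strands are called heavy and light: the heavy strand is the template for both rRNAs, most tRNAs and all of the mRNAs but mt-Nd6, and the light strand for mt-Nd6 and the other tRNAs. tRNAs sit between many of the mRNAs and rRNAs and are cut out at both ends, which releases the mRNAs, and most mRNAs are then polyadenylated. The mRNAs encode core subunits of respiratory complexes I, III, IV and V, whose other subunits are nuclear-encoded, and proliferating lymphoid cells draw on this chain for ATP and for nucleotide synthesis.

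The genes are packed closely, which bears on how reads can be assigned. Of 36 neighbouring pairs in genome order, irrespective of strand, 9 overlapped, 12 abutted, 14 had a gap of 1 to 10 bases and 1 had a gap over 10 bases, of 32 bases. mt-Atp8 and mt-Atp6 share 43 bases, and mt-Nd4l and mt-Nd4 share 7. Below, each of the 13 coding genes is called an mRNA and counted by itself, although mt-Atp8 and mt-Atp6 lie on the same mRNA. The annotated ends of 10 of the 13 coding genes hold a complete stop codon. The other 3 end in a single T, and for these the adenines added to the mRNA supply the rest of the stop codon. They are given with their last 30 bases, 5′ to 3′, and the letters that are the annotated stop in capitals, beside mt-Nd1, the coding gene with the highest ratio, whose stop is complete.
mt-Nd1: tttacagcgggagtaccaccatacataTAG
mt-Co3: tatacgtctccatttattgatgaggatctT
mt-Nd4: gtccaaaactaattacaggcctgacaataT
mt-Cytb: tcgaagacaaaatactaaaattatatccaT

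For the tRNAs, 3 adjoining genes that were all higher in the Klf2 library and the gene with the lowest measured ratio are printed as transcribed, 5′ to 3′, with the anticodon in capitals. mt-Th (histidine; MT:11546-11612), mt-Ts2 (serine; MT:11613-11671) and mt-Tl2 (leucine; MT:11671-11741) are read from the heavy strand and follow one another between mt-Nd4 and mt-Nd5. mt-Ta (alanine; MT:5018-5086) is read from the light strand and is the one with the lowest ratio.
mt-Th: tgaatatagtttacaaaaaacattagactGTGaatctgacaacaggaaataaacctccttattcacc
mt-Ts2: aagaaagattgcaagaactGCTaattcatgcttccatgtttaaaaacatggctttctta
mt-Tl2: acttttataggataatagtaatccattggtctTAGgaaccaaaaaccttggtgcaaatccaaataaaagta
mt-Ta: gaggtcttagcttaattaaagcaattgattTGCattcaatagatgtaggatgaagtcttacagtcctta

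Levels are counts of a gene's reads per 1000000 reads of its library (CPM), scaled with TMM, a factor estimated over all genes, and a ratio is the Klf2 library over the BFP library. Each ratio is given with its exact 95% (Clopper-Pearson) interval from the 2 read counts, which covers counting error only, as each group is 1 library. Reads carried no molecular identifiers, so repeated reads of a molecule count as separate and the interval can be too narrow. The BFP library held 30133978 exon reads (7506567 to 7588695 per lane) and the Klf2 library 30835450 (7682298 to 7741626 per lane). Klf2 itself stood at 10.1 CPM in BFP and 113 CPM in Klf2, 11.1-fold higher. Of 11 pro-B markers in the table, 8 were at 1 CPM or more in either library, including Cd79a, Pax5 and Flt3, while Rag1, Rag2 and Dntt stayed at or under 9 reads in each library, although pro-B cells are commonly defined by these recombination genes. The measured markers differed too: Vpreb1 (1.49) and Igll1 (1.43) were higher and Cd79b (0.753) lower in ratio, and their part in the mitochondrial results was not tested. Few markers of other cells reached 1 CPM: 2 of 8 myeloid (8.46 and 5.52 CPM summed over the list in BFP and Klf2), 1 of 7 T cell (4.12 and 9.37 CPM, mostly Lat with 110 and 254 reads, a ratio of 2.40, while Cd3e, Cd4 and Cd8a were at 0), 0 of 5 erythroid (1.58 and 1.10 CPM) and 0 of 6 stromal genes (0.161 and 0.0335 CPM) were measured.

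The mitochondrial mRNAs were among the most abundant RNAs of these cells in both libraries. They took 6 of the 10 and 9 of the 20 highest CPM values of the table. By lane, their share of exon reads was 6.24, 6.22, 6.12 and 6.13% in BFP and 6.17, 6.16, 6.07 and 6.08% in Klf2. The Klf2 share was the lower of the 2 in every lane, but lanes 1 and 2 stood above lanes 3 and 4 in both libraries by more than the libraries differed. Summed over lanes the share was 6.18% in BFP (6.17 to 6.19) and 6.12% in Klf2 (6.11 to 6.13). Lanes of a library differed in this share by more than counting error, so these intervals are too narrow. In TMM-scaled CPM the 13 genes summed to 59880.3 in BFP and 63150.4 in Klf2, a ratio of 1.05 (1.05 to 1.06), and scaling to total reads instead turned it to 0.990. The sum of the mRNAs therefore had no direction that held across scalings.

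The 13 coding genes did not all move together. Ratios ran from 0.901 for mt-Co3 to 1.37 for mt-Nd1, a 1.52-fold range, with 6 above 1 and 7 below and a median of 0.981. No interval held 1 on exon reads. On gene reads, those of mt-Atp8 (0.998, 0.987 to 1.01) and mt-Nd4 (0.998, 0.990 to 1.01) did. The side of 1 was the same under every scaling tried for all of them but mt-Nd6, which is named below. A limit of 25% was set next: a ratio at least 25% above 1, or at most its inverse of 0.8, with the interval excluding 1, for genes that reached 1 CPM in a library. At this limit 2 of the 13 were higher (mt-Nd1 and mt-Nd2) and 0 lower. Over the alternatives tried, the number higher ran from 1 to 3, with mt-Nd3 past the limit on gene reads. Over all 10850 genes measured this limit took 23.1% in the higher direction and 24.5% in the lower direction. At 2-fold it took 0 of the 13 in either direction, where 2.45% of all genes were higher and 5.67% lower. As counted, mt-Nd4l was the least abundant mRNA in BFP (388 CPM), but its reads are split with a nuclear copy, as given below. Over the 446 other genes at least that abundant, 189 were higher and 61 lower at the 25% limit. Their median log2 ratio was 0.23 against -0.01 for all genes. The single-lane values of 6 mRNAs lay higher in every Klf2 lane than in any BFP lane, those of 5 lay lower in every Klf2 lane, and those of mt-Atp8 and mt-Nd4 overlapped. Lanes of a library repeat the same molecules and are no replicates. The share of all genes whose lanes part in this way is not given here, so these counts show nothing particular to the mRNAs.

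**Figure D1:**
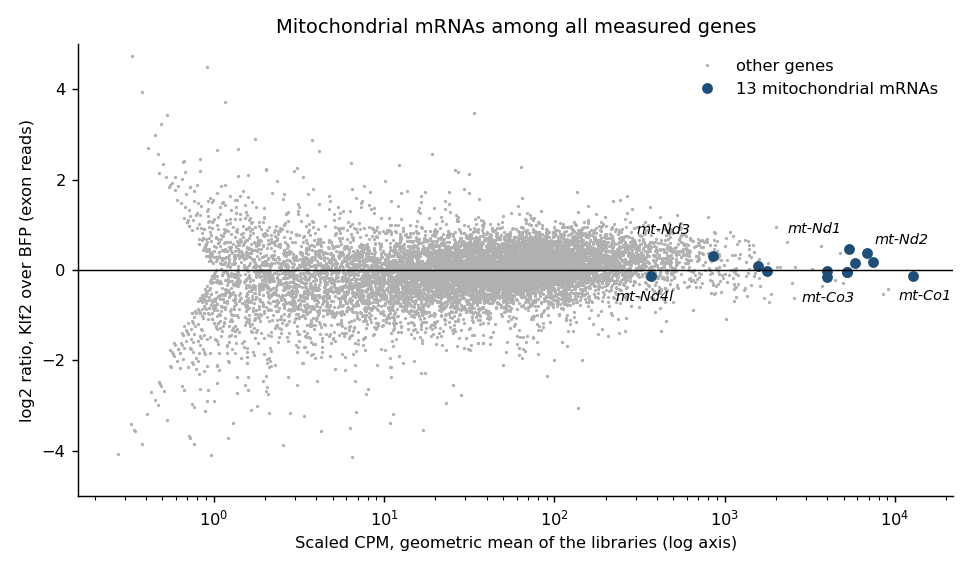
TMM-scaled CPM of each gene that reached 1 CPM in a library (horizontal log axis, geometric mean of the libraries) against its log2 ratio of Klf2 over BFP on exon reads (vertical axis). Grey points are other genes and blue points the 13 mitochondrial mRNAs, which lie at the abundant end, from -0.15 (mt-Co3) to 0.45 (mt-Nd1) on the log2 scale.

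The rRNAs of the mitochondrial ribosome were higher in the Klf2 library. mt-Rnr1 (12S, the small-subunit rRNA; MT:70-1024) stood at 280.4, 265.5, 267 and 260.5 CPM in the BFP lanes. In the Klf2 lanes it stood at 367, 368, 346 and 367 CPM, so every Klf2 lane was above every BFP lane. Its reads were 9928 in BFP and 12638 in Klf2, a ratio of 1.35 (1.31 to 1.38). mt-Rnr2 (16S, the large-subunit rRNA) stood at 436, 446, 413 and 440.1 CPM in the BFP lanes and at 568, 590.2, 574 and 562 CPM in the Klf2 lanes, again with no overlap. Its reads were 16038 and 20033, a ratio of 1.32 (1.30 to 1.35). The rRNAs together made up 1.37% of mitochondrial reads in BFP and 1.70% in Klf2, and their summed ratio was 1.33 (1.31 to 1.35), or 1.23 when scaled to total reads. These libraries were selected for poly(A) tails, so the values are of rRNA that passed that selection.

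A nuclear rRNA-type gene entry was also higher in the Klf2 library, by more than the mitochondrial rRNAs. Gm26924 (chr17:39846958-39848788), which overlaps an annotated rRNA on the opposite strand and was singled out after its values were seen, held 8695 to 9230 reads per BFP lane and 20120 to 21805 per Klf2 lane. That is 0.101% and 0.232% of all gene reads, and a ratio of 2.48 (2.45 to 2.52). Its part in the mitochondrial rRNA difference was not tested.

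Complex I takes electrons from NADH, and its 7 mitochondrial subunits went in different directions. Summed, they had a ratio of 1.15 (1.15 to 1.16) and were 37.3% of mitochondrial reads in BFP and 40.7% in Klf2. mt-Nd1 (MT:2751-3707) stood at 4645, 4628, 4542 and 4584 CPM in the BFP lanes and at 6397, 6328, 6229 and 6258 CPM in the Klf2 lanes. Every Klf2 lane was thus above every BFP lane, by far more than the lanes of a library differed. The reads were 143034 and 188353, and the ratio was 1.37 (1.36 to 1.38). Its share of mitochondrial reads, which no scaling between libraries can move, was 7.57% in BFP and 9.80% in Klf2. mt-Nd2 stood at 6084, 6073, 5969.8 and 5969.9 CPM in the BFP lanes and at 7875, 7856, 7772 and 7772 CPM in the Klf2 lanes. The ratio was 1.30 (1.29 to 1.31), again without overlap of lanes, and 1.22 when scaled to total reads, which is under the 25% limit. mt-Nd3 stood at 756, 762, 764 and 769 CPM in the BFP lanes and at 942, 955, 954 and 938 CPM in the Klf2 lanes. Its ratio was 1.24 (1.22 to 1.26), just short of the limit, and 1.26 (1.24 to 1.29) on gene reads, past it.

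The other complex I subunits were close to 1 or below it. mt-Nd4 had a ratio of 0.980 (0.972 to 0.988) and its lanes overlapped, at 4008 to 4097 CPM in BFP and 3899 to 4035 CPM in Klf2. mt-Nd5 had a ratio of 0.965 (0.959 to 0.972), at 5310.0 to 5394 CPM in the BFP lanes and 5119 to 5204 CPM in the Klf2 lanes. mt-Nd6, the only mRNA read from the light strand, had a ratio of 1.06 (1.04 to 1.07) with TMM but 0.991 when scaled to total reads. Its share of mitochondrial reads was 2.51% in BFP and 2.50% in Klf2, a share ratio of 0.998 (0.986 to 1.01), the only coding gene whose share interval held 1. mt-Nd6 shares bases with mt-Nd5 at its end and lies opposite the heavy-strand precursor, and since it is not given whether counting used strand, sense and antisense reads there cannot be told apart.

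mt-Nd4l, the shortest complex I member, had a ratio of 0.911 (0.887 to 0.935), but its reads have no unique placement. All 12074 BFP and 10568 Klf2 reads were placed at more than 1 site, and 0 were unique. A nuclear copy is the pseudogene Gm10222 (chr1:24612404-24612700), whose GENCODE transcript of 294 bases is identical to bases 1 to 294 of the 297-base gene. It was counted with 12212 BFP and 10696 Klf2 reads, also 0 unique. The entries thus split the reads almost evenly, with 49.7% on mt-Nd4l in both libraries, and their sum had a ratio of 0.911 (0.894 to 0.928). The gene is printed in full (MT:9877-10173, 5′ to 3′), with the 3 bases beyond the end of the 294-base transcript in capitals. That end is set by the annotation. The 3 bases lie in the stretch shared with mt-Nd4, whose copy Gm28439 on chromosome 1 is 100% identical to bases 1 to 876 of mt-Nd4.
mt-Nd4l: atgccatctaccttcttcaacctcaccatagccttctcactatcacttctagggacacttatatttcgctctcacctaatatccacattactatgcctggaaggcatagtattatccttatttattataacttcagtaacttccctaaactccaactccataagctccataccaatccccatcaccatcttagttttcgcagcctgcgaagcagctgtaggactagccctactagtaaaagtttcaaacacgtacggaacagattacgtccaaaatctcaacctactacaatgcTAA

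Other mRNAs have such copies too. An alignment of the MT genes to GENCODE transcripts found 17 nuclear copies of at least 100 bases and 90% identity, for 11 genes. Of these, 7 were at least 99% identical, all on chromosome 1, for mt-Nd4l, mt-Atp6, mt-Co1, mt-Co2, mt-Co3, mt-Nd3 and mt-Nd4. Uniquely placed reads made up 73.0% of mt-Co1 and 61.8% of mt-Co2 reads in BFP, and 72.8% and 61.7% in Klf2. In contrast, 100% of the reads of mt-Atp6, mt-Co3, mt-Nd3 and mt-Nd4 were counted as unique although copies exist, so unique in the table does not mean present once in the genome. On unique reads alone the summed ratio of the coding genes was 1.06.

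Complex III passes electrons on to cytochrome c, and mt-Cytb (cytochrome b; MT:14145-15288) is its single mitochondrial subunit. It stood at 5578, 5535, 5483 and 5453 CPM in the BFP lanes and at 6224, 6187, 6151 and 6149 CPM in the Klf2 lanes. Every Klf2 lane was above every BFP lane, and the ratio was 1.12 (1.11 to 1.13).

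Complex IV, cytochrome c oxidase, reduces oxygen, and its 3 mitochondrial subunits divided. mt-Co1 (MT:5328-6872), the catalytic subunit and the most abundant mRNA of the set in CPM, stood at 13541, 13499.6, 13315 and 13340.2 CPM in the BFP lanes and at 12306, 12263, 12145 and 12203 CPM in the Klf2 lanes. All Klf2 lanes were below all BFP lanes. The reads were 417410 and 365449 and the ratio 0.911 (0.907 to 0.915), and its share of mitochondrial reads was 22.1% in BFP and 19.0% in Klf2. mt-Co3 (MT:8607-9390) stood at 4249, 4216, 4128 and 4158 CPM in the BFP lanes and at 3772, 3837, 3727 and 3752 CPM in the Klf2 lanes. It had the lowest ratio of the mRNAs, 0.901 (0.894 to 0.908), and its share was 6.89% and 5.86%. mt-Co2 (MT:7013-7696) went the other way, at 6906 to 7067 CPM in the BFP lanes and 7847 to 7983 CPM in the Klf2 lanes, a ratio of 1.13 (1.13 to 1.14). Summed, complex IV was 40.5% of mitochondrial reads in BFP and 37.2% in Klf2.

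Complex V, the ATP synthase, has 2 mitochondrial subunits, and both had ratios just below 1. mt-Atp6 stood at 5235 to 5339 CPM in the BFP lanes and at 5047 to 5194 CPM in the Klf2 lanes, a ratio of 0.972 (0.965 to 0.979). mt-Atp8, whose end overlaps mt-Atp6 on the same mRNA, had a ratio of 0.981 (0.969 to 0.993), and its lanes overlapped. As shares of mitochondrial reads both were lower in Klf2, at 7.97% against 8.67% for mt-Atp6 and 2.72% against 2.94% for mt-Atp8. Over the 13 coding genes, 5 shares were higher in Klf2, 7 were lower and 1, that of mt-Nd6, had an interval that held 1. The 7 include mt-Atp8 and mt-Atp6, on the same mRNA, and the overlapping mt-Nd4l and mt-Nd4, so they are not 7 separate RNAs.

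**Figure D2:**
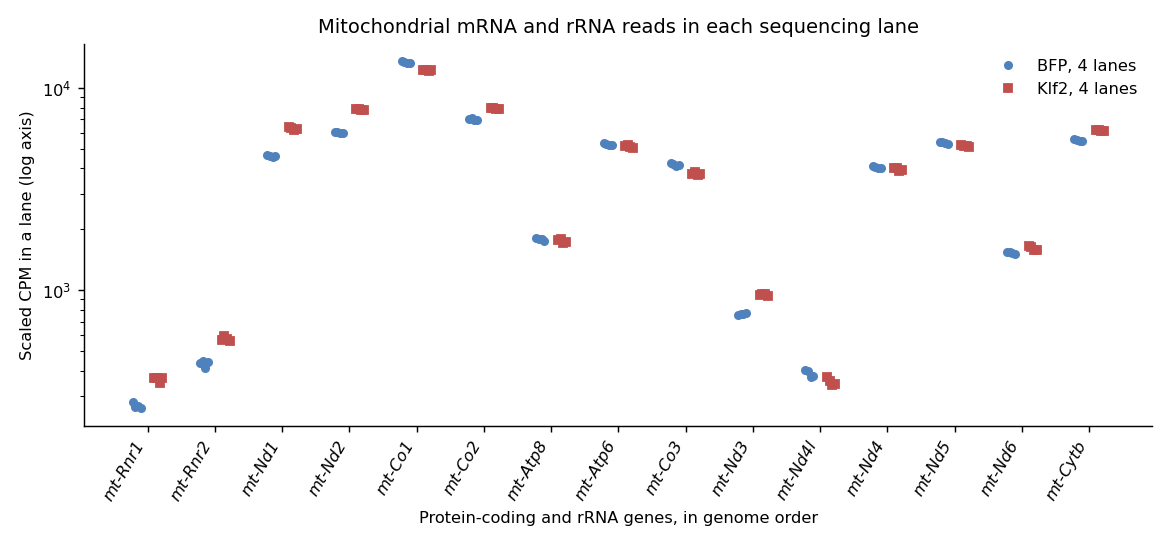
TMM-scaled CPM (vertical log axis) of the 13 protein-coding genes (exon reads) and 2 rRNA genes (gene reads) in each of the 4 BFP lanes (blue circles) and 4 Klf2 lanes (red squares), in genome order. Lanes of a library lie close together, mt-Rnr1, mt-Rnr2, mt-Nd1 and mt-Nd2 are separated upward in Klf2, and mt-Co1 and mt-Co3 downward.

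Per length, as scaled CPM per kilobase, the mRNAs spanned a wide range of levels, and several changed place in their order between the libraries. mt-Co2 was the highest, at 10227 in BFP and 11584 in Klf2. mt-Atp8 (8750.3 and 8583) and mt-Co1 (8689 and 7916) followed in both, and mt-Atp6 stood at 7742 and 7525. mt-Nd2 (5803 and 7532) moved from below mt-Atp6 in BFP to level with it in Klf2. mt-Nd1 (4807 and 6586) was level with mt-Cytb (4818 and 5400.1) in BFP and above it in Klf2, where mt-Co3 (5341 and 4811) stood under both. mt-Nd4, mt-Nd5 and mt-Nd6 had nearly the same level in BFP, between 2935 and 2939.7, and stood at 2881, 2833 and 3105 in Klf2. mt-Nd3 stood at 2192 in BFP and 2722 in Klf2. mt-Nd4l was the lowest as counted, at 1307 in BFP and 1191 in Klf2. With the reads of Gm10222 added it stood at 2629.7 and 2396, above mt-Nd3 in BFP and below it in Klf2. mt-Rnr1 (281 and 379) and mt-Rnr2 (274 and 363) were lower than every mRNA in these poly(A)-selected libraries. The mRNA levels, that of mt-Nd6 included, are likewise of RNA that passed this selection.

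The authors' deposited median coverage, the depth over a gene, is 0 for the rRNA and tRNA genes in every lane and could be read for the mRNAs. For mt-Nd1 it ran from 1784 to 1845 over the BFP lanes and from 2373 to 2450 over the Klf2 lanes. For mt-Co1 it ran from 3018 to 3077 and from 2647 to 2710. For mt-Co3 it ran from 1970.0 to 1988.5 and from 1689 to 1760.0. These depths are not scaled for library size.

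Along the genome, the highest ratios among the mRNAs and rRNAs belonged to the genes that come first on the heavy-strand precursor, an order looked at after the values were known. From the start these were mt-Rnr1 at 1.35, mt-Rnr2 at 1.32, mt-Nd1 at 1.37 and mt-Nd2 at 1.30. The rRNA ratios here are on gene reads and the mRNA ratios on exon reads. On gene reads mt-Nd1 stood at 1.39, mt-Nd2 at 1.32 and mt-Co1 at 0.927. The next mRNA, mt-Co1, stood at 0.911, and of the later ones mt-Nd3 was the highest, at 1.24. The ratios therefore did not fall steadily with position: mt-Co2, mt-Nd3 and mt-Cytb were above 1 between and after genes below it.

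**Figure D3:**
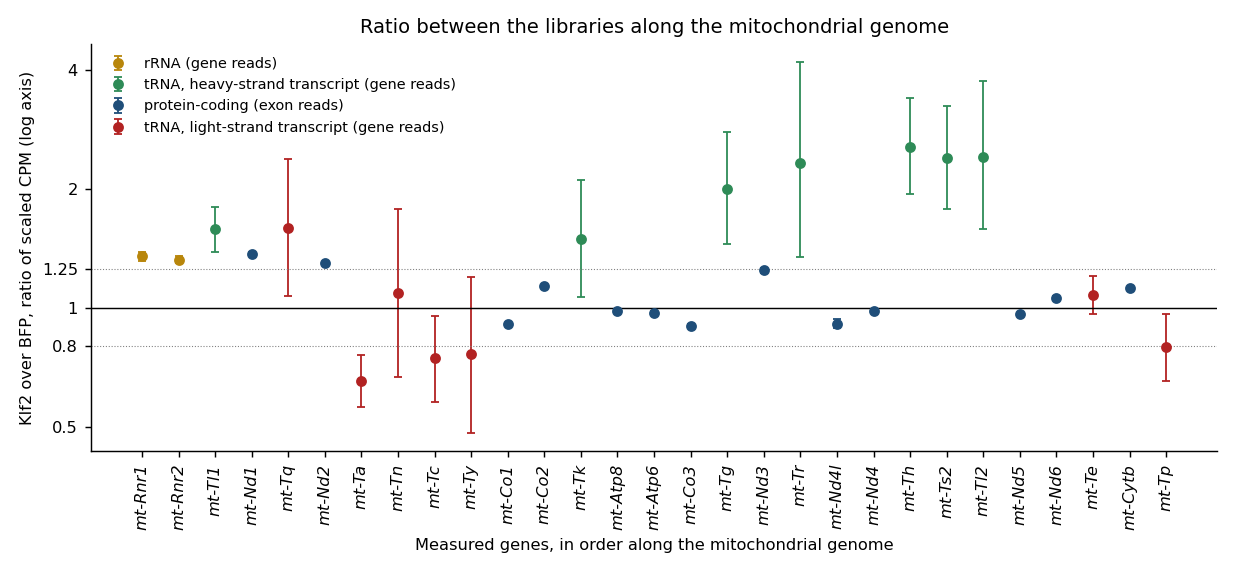
Ratio of Klf2 over BFP in TMM-scaled CPM (vertical log axis) for the 29 measured mitochondrial genes in genome order, with exact 95% intervals of counting error, coloured by class and transcribed strand; dotted lines mark the 25% limit (a ratio 25% above 1, and 0.8). Ratios of mRNAs are on exon reads and those of rRNAs and tRNAs on gene reads. The rRNAs, mt-Nd1, mt-Nd2 and the measured tRNAs of the heavy-strand transcript stand at or above the upper line, as does mt-Tq. Below the lower line lie mt-Ta, mt-Tc, mt-Tp and mt-Ty (0.763, with an interval that holds 1).

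Mitochondrial tRNAs were rare in these libraries, as 14 of the 22 reached 1 CPM in either library and 8 did not, and mt-Td had 0 reads in both (a level of at most 0.0844 CPM for BFP and 0.0826 CPM for Klf2, before TMM scaling). These libraries were selected for poly(A) tails, so the values are of RNA over tRNA genes that passed that selection. They are not levels of tRNA in the cells. All 22 tRNA genes together held 2374 reads in BFP and 2637 in Klf2, a ratio of 1.18 (1.11 to 1.24). Split by transcribed strand, a split made after the values were seen, they parted. The 14 heavy-strand tRNA genes summed to 171, 182, 210 and 185 reads in the BFP lanes and to 343, 307, 314 and 310 in the Klf2 lanes, and every Klf2 lane was above every BFP lane. The ratio was 1.80 (1.65 to 1.98), and 2.03 without mt-Tl1, the gene with the most reads among them. The 8 light-strand tRNA genes summed to 426, 395, 394 and 411 reads in the BFP lanes and to 362, 340, 318 and 343 in the Klf2 lanes, a ratio of 0.888 (0.826 to 0.955). That lower sum depends on mt-Ta: without it the ratio was 0.980 (0.902 to 1.07), and without mt-Te it was 0.768.

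By gene, 8 tRNAs were past the 25% limit upward and 3 downward, where 24.1% of all 12146 genes measured in gene reads were higher and 23.2% lower. Of the 8, 7 were heavy-strand tRNAs, and the 3 lower ones were light-strand tRNAs. The other 7 heavy-strand tRNAs stayed under the floor and are in no count: mt-Td had 0 reads, and the others went both ways, such as mt-Ti with 16 and 9 reads and mt-Tm with 17 and 27. With both rRNAs added, the counts were 10 higher and 3 lower, or 6 and 3 when scaled to total reads. At 2-fold, 4 tRNAs were higher and 0 lower, where 2.87% of all genes were higher and 5.56% lower, and at a floor of 10 CPM none of the 4 was left. Of these 4, mt-Tr (0.541 CPM in BFP and 1.26 in Klf2) and mt-Tl2 (0.892 and 2.15) reached the floor of 1 CPM only in the Klf2 library, where they were high. The counts of higher tRNAs at 2-fold and at the 25% limit, the 7 heavy-strand tRNAs included, are thus partly set by that floor.

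The 3 adjoining heavy-strand tRNAs printed above were all more than 2-fold higher. mt-Th had 21, 15, 23 and 16 reads in the BFP lanes and 42, 48, 56 and 35 in the Klf2 lanes, a ratio of 2.56 (1.94 to 3.39). mt-Ts2 had 67 reads in BFP and 151 in Klf2, a ratio of 2.39 (1.78 to 3.23). mt-Tl2 had 33 and 75 reads, a ratio of 2.41 (1.58 to 3.74). Summed, the 3 had 175 and 407 reads, a ratio of 2.46 (2.06 to 2.96). The 3 were put together after their ratios were seen, so the sum adds no support to the single values. Its interval does not allow for that choice. The mRNAs on either side, mt-Nd4 and mt-Nd5, were at 0.980 and 0.965 on exon reads. On gene reads, the measure used for the tRNAs, they were at 0.998 and 0.983. The other heavy-strand tRNA past 2-fold was mt-Tr (arginine), with 20 and 44 reads and a ratio of 2.33 (1.34 to 4.17). mt-Tg (glycine) had 60 and 113 reads, a ratio of 1.99 (1.45 to 2.78), just short of 2-fold. mt-Tl1 (leucine), which lies between mt-Rnr2 and mt-Nd1, had 84, 99, 101 and 92 reads in the BFP lanes and 156, 132, 137 and 135 in the Klf2 lanes, a ratio of 1.58 (1.38 to 1.80). mt-Tk (lysine) had 61 and 86 reads, a ratio of 1.49 (1.06 to 2.11), with lanes that overlapped, and its interval held 1 without lane 1, at 1.40 (0.928 to 2.14), or lane 4, at 1.42 (0.956 to 2.13). Scaled to total reads, the intervals of mt-Tk and mt-Tq also held 1.

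Light-strand tRNAs went both ways. mt-Ta had 108, 112, 121 and 116 reads in the BFP lanes and 80, 65, 67 and 69 in the Klf2 lanes, and every Klf2 lane was below every BFP lane. The ratio was 0.651 (0.559 to 0.757). mt-Tc (cysteine) had 158 and 111 reads, a ratio of 0.744 (0.578 to 0.955), and mt-Tp (proline) 243 and 182, a ratio of 0.793 (0.651 to 0.965). Neither passed the limit with lane 1 or lane 3 left out: mt-Tc stood at 0.780 (0.582 to 1.04) and 0.750 (0.559 to 1.003), and mt-Tp at 0.835 and 0.828. mt-Te (glutamate), the tRNA with the most reads in both libraries, had 634 and 644, a ratio of 1.08 (0.963 to 1.20) that turned to 0.994 when scaled to total reads. mt-Tq (glutamine), with 44 and 66 reads, was the single light-strand tRNA past the limit upward, at 1.59 (1.07 to 2.38), with overlapping lanes. Its interval held 1 without lane 4, at 1.45 (0.917 to 2.31). As shares of mitochondrial reads, the intervals of mt-Tq (0.992 as the lower bound) and mt-Tk (0.987) held 1. mt-Tc was uncertain in placement, with 84.2% unique reads in BFP and 85.6% in Klf2. Reads on a tRNA gene can come from the cut tRNA, from an uncut precursor or, without strand in the counting, from the opposite transcript, and these cannot be told apart.

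**Figure D4:**
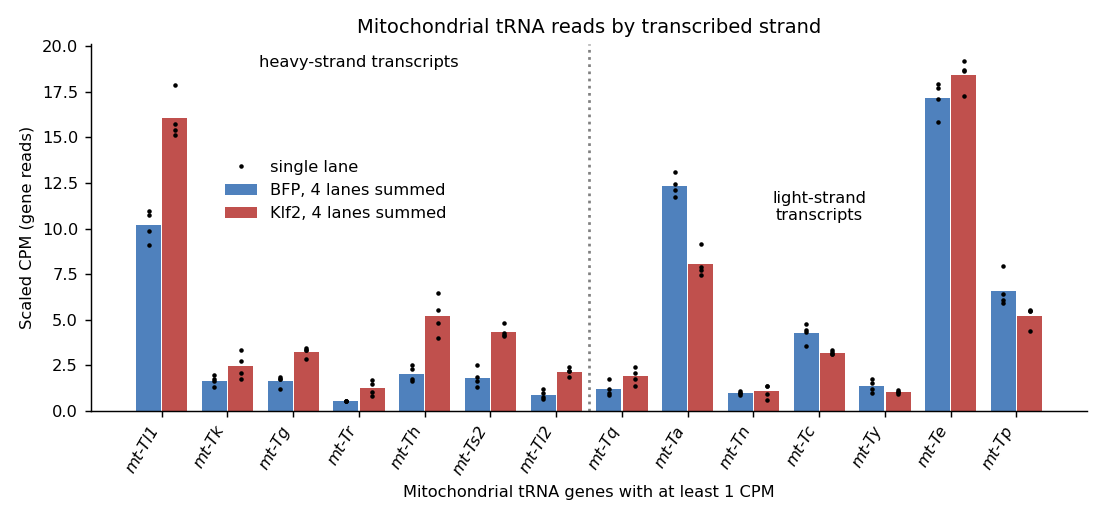
TMM-scaled CPM on a linear axis from 0, from gene reads, of the 14 mitochondrial tRNA genes that reached 1 CPM; bars are the 4 lanes summed for BFP (blue) and Klf2 (red), and black points single lanes. The 7 heavy-strand tRNAs shown are all higher in Klf2, and mt-Ta, mt-Tc and mt-Tp are lower. Of the heavy-strand tRNAs shown, mt-Tr and mt-Tl2 reached 1 CPM only in the Klf2 library. Those under the floor are not shown and went both ways.

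The nuclear genes that copy, transcribe and process mitochondrial DNA and RNA were more often above than below 1. The list holds 50 genes of the table, and 48 of them were measured: 28 had an interval above 1 and 7 below. Over all 10850 genes measured, 5381 ratios were above 1 and 5469 below. The share of all genes with an interval above or below 1 is not given here. At the 25% limit, 16 list genes were higher and 1 lower, or 12 and 3 when scaled to total reads, and at 2-fold 1 was higher. Over all genes the 25% limit took 23.1% upward and 24.5% downward, and the 2-fold limit 2.45% and 5.67%. The list's median log2 ratio was 0.22, against -0.01 over all genes. The 446 more abundant other genes named above had a median of 0.23, so an upward median is not particular to this list. The transcription apparatus divided: Tfam, which packages the DNA and activates transcription, had a ratio of 1.23 (1.17 to 1.30), and Tfb2m, which opens the promoter, 1.38 (1.26 to 1.51) with 22.6% unique reads, while Polrmt, the RNA polymerase itself, stood at 0.880 (0.827 to 0.935). The replication enzymes Polg, the DNA polymerase, and Peo1, the helicase Twinkle, stood at 0.992 (0.936 to 1.05) and 1.11 (1.03 to 1.19).

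Of the list genes, the 6 furthest from 1, beside those already given and Lrpprc, were all higher. Lrpprc, which stabilises mitochondrial mRNAs, was at 94.8 CPM in BFP and 130.4 in Klf2, a ratio of 1.38 (1.31 to 1.44). Its partner Slirp had a ratio of 1.57 (1.42 to 1.73), with 53.8% unique reads. Elac2, which cuts tRNA 3′ ends, was at 75.6 and 112 CPM, a ratio of 1.48 (1.41 to 1.56). Pnpt1, a subunit of the RNA-degrading complex, stood at 1.59 (1.48 to 1.70), Ptcd3, a protein of the small mitochondrial ribosomal subunit, at 1.70 (1.61 to 1.80), and Mterfd3, of the termination-factor family, at 1.59 from 117 and 179 reads. Top1mt, the mitochondrial topoisomerase, was the single gene past 2-fold, with 312 and 740 reads and a ratio of 2.47 (2.16 to 2.83). Polg2, the polymerase's accessory subunit, was the single gene lower at the 25% limit, at 0.779 (0.642 to 0.945), and was named after its value was seen, because it stands alone. It did not pass that limit without lane 1 or lane 4.

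The nuclear-encoded partners of the mitochondrial mRNAs were above 1 in the median of each complex. The median log2 ratio of nuclear subunits was 0.32 for complex I (25 genes), 0.48 for complex III (9 genes), 0.44 for complex IV (10 genes) and 0.44 for complex V (15 genes). The summed mitochondrial subunits of the same complexes had log2 ratios of 0.21, 0.16, -0.04 and -0.04. A sum weights abundant genes and a median does not, and within complex I mt-Nd1 (0.45) and mt-Nd2 (0.38) lay above the nuclear median. Complex II, which has no mitochondrially encoded subunit, had a median of 0.41 over 4 genes. No test of the difference between the nuclear and the mitochondrial subunits was possible.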

How the data were processed

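RNA was poly(A)-selected and sequenced, per the labels' protocols. Per the submitters' processing notes, CASAVA 1.8.2 and mm10 were used; which aligner, counter and annotation, and whether strand was used, is not given in the sources used here. Per the file headers, the authors' deposited values used are counts per gene and lane (all exon reads, unique exon reads, all gene reads, junction reads) and median coverage, a signal. The 2 rRNA and 22 tRNA genes have 0 exon reads in every lane, so their gene reads were used, with TMM factors from gene reads, although exon reads had been planned. For the 13 coding genes, exon and gene reads sum to the same number, and 0 reads span junctions.

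Chi-square of lane counts per degree of freedom was 1.29 (BFP) and 1.27 (Klf2) on exon reads, 1.03 and 1.03 on unique exon reads, and 1.53 and 1.51 on gene reads, the last just over the limit of 1.5. On the 13 coding genes it was 3.98 and 4.11, past that limit, and 0.727 and 1.45 given the mitochondrial total of a lane. Lanes thus differed in that total. Intervals of the coding-gene ratios and of the mitochondrial share of exon reads are too narrow for this reason. Lanes were summed to 1 library per group. Scaling used edgeR 4.0.16 (R 4.3.3), and intervals scipy 1.17.1, tested on simulated data. Alternatives were total-read, non-mitochondrial and DESeq2 1.42.0 scaling, unique reads, gene reads, other floors and each lane left out. A count of 0 allows 3 reads of the total. Nuclear copies were found with blastn 2.17.0, and sequences come from GENCODE M21 transcripts. No protein sequences were used.

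The members, lists and rules were chosen with earlier results of these data known. Named are all coding and rRNA genes, the 5 tRNAs with most reads and those past the 25% limit, and of the nuclear list Tfam, Polrmt, Tfb2m, Peo1, Polg, Lrpprc and the 6 others furthest from 1, beside Polg2, named after its value was seen. Of the lists, Nsun4, Ebf1 and Hbb-b1 were not used here.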

Additional observations from a re-analysis of the deposited data

Results flagged for a closer look

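Over 60 groups of 4 lanes (the BFP or Klf2 lanes of each measured gene and of the mitochondrial share), 2 held a lane far from the other 3 by Dixon's criterion, and chance flags about 1 in 20 groups. mt-Rnr1 stood at 345.8 CPM in Klf2 lane 3, where the other Klf2 lanes stood between 366.8 and 367.9 CPM, and this lane was still above every BFP lane. mt-Tp stood at 4.37 CPM in Klf2 lane 3, where the others stood between 5.48 and 5.51 CPM.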

How the results depend on the processing

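Lanes of a library are no replicates, intervals cover counting error only, and tRNA values rest on few reads. The summed ratio of the coding genes, 1.05 with TMM, was 0.990 when scaled to total reads and 0.990 when scaled to reads outside the mitochondrial genome, 1.05 with DESeq2 size factors, 1.06 on unique reads and 1.07 on gene reads, and between 1.05 and 1.06 with a lane left out. Under the total and the non-mitochondrial scalings, in that order, the summed rRNA ratio was 1.23 and 1.23, the tRNA ratio 1.09 and 1.09, and the light-strand tRNA ratio 0.820 and 0.820. These scalings left 1 and 1 coding genes past the 25% limit upward, 6 and 6 rRNA and tRNA genes higher, and 3 and 3 nuclear list genes lower. They moved the median log2 ratio of all genes by -0.09. On gene reads, 3 coding genes were past the 25% limit upward. The heavy-strand tRNA ratio was 2.03 without mt-Tl1, and the light-strand ratio 0.768 without mt-Te and 0.980 without mt-Ta, alternatives chosen after seeing the data. The mitochondrial share on unique reads was 6.50% in BFP and 6.45% in Klf2, and with a lane left out 6.16 to 6.20% and 6.10 to 6.14%. With a lane left out, 1 to 3 rRNA and tRNA genes were past the 25% limit downward (1 without lane 1 or lane 3), and 0 to 2 nuclear list genes. With a floor of 10 CPM, 3 rRNA and tRNA genes were higher and 1 lower at the 25% limit, 0 higher at 2-fold, and 0 nuclear list genes lower, since few tRNAs reach it; for all genes at 2-fold, 121 were higher and 277 lower, against 266 and 615 at 1 CPM, and 432 were higher without a floor. The side of 1 was the same under all alternatives for 26 of 29 genes, and changed for mt-Nd6, mt-Te and mt-Tn. The causes were not tested. No paired analysis was possible because each group is 1 library and its lane numbers pair no separate samples.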
